A study of Mus musculus with 12 samples.

Results

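The genes described here are 45 mouse genes of endoplasmic reticulum (ER) protein folding, ER-associated degradation (ERAD) and the unfolded protein response. They were chosen by name, and each was found in the count table through its GENCODE symbol, so that all 45 were among its 55414 genes. All 45 also passed the filter on low counts that left 13057 genes for testing. The table holds RNA-seq counts of 2 fractions of crypt cells, Paneth and non-Paneth, that were sorted from the small intestine of naive C57BL/6J mice. The mice were either wild type (WT) or GRvillinKO (GRKO), in which the glucocorticoid receptor gene Nr3c1 is deleted in epithelial cells by a Cre recombinase under the villin promoter. Each fraction of each genotype is a group of 3 libraries, which makes 4 groups. Paneth cells were gated as CD24+ and cKIT+ with medium to high side scatter, after removal of TER119, CD45 or CD31 positive cells. How the non-Paneth fraction was gated was not stated. The study compared the transcriptomes of both fractions with and without the receptor.

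The ER is where secreted and membrane proteins fold, with the help of chaperones, lectins that read N-glycans, and enzymes that form disulfide bonds. Proteins that fail to fold are passed out of the ER through ERAD, ubiquitinated and degraded. When unfolded protein accumulates, the sensors IRE1 (Ern1, and Ern2 in mucosal epithelium), ATF6 and PERK (Eif2ak3) start the unfolded protein response, which raises chaperone and ERAD genes through the transcription factors XBP1 and ATF6 and slows translation. Paneth cells, at the base of the crypt, secrete lysozyme and disulfide-bonded alpha defensins in bulk and are rich in rough ER.

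The libraries held between 11126297 and 15910292 counts. The labels' genotype field gives all Paneth libraries the value WT and all non-Paneth libraries the value GRKO, so genotype was taken from the sample titles. Levels are given as TMM-scaled CPM, counts scaled to library size and corrected for differences in composition, in the order of replicates 1, 2 and 3. Nr3c1 was at 40.8, 50.3 and 54.0 in WT Paneth and 7.97, 5.82 and 15.4 in GRKO Paneth cells, and among non-Paneth cells at 110.4, 126 and 131 (WT) and 20.03, 13.1 and 24.5 (GRKO), lower in every GRKO library than in any WT library of its fraction. The summed level of 8 Paneth marker genes was between 433800 and 678400 in Paneth libraries and at most 1148 in non-Paneth libraries. The 7 plasma cell markers, listed because plasma cells express many of the same ER genes, summed to between 66.1 and 126 in every group. Most of that was Sdc1, at 66.0 to 117, which epithelial cells also express. Igha reached at most 7.56 and Igkc 7.21, both in WT non-Paneth libraries, Jchain 2.23, Ighm 0.495 and Tnfrsf17 0.0466, and Mzb1 had 0 counts in all 12 libraries. The X-inactivation transcript Xist was at 193 in Paneth and 214 in non-Paneth cells of WT replicate 2 and at most 0.427 in the other 10 libraries. No GRKO library was thus high in Xist, and the part of this difference in the genotype comparisons was not tested. In bulk libraries such as these, a change in the cells that make up a fraction and a change of RNA per cell cannot be told apart.

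The promoters of several members carry the ER stress response element (ERSE), which is CCAAT, any 9 bases and CCACG and which ATF6 binds together with the factor NF-Y. RefSeq promoter windows, from 250 bases before to 50 bases after a gene's start on GRCm38.p6, were found for 40 of the 45 members, without Atf6, Derl1, Ern2, Hyou1 and Manf. Searched on both strands, the ERSE was in the windows of 10 of these 40 members (25.0%) and of 37 of all 27025 genes (0.137%). They were Calr, Canx, Creld2, Derl3, Dnajc3, Ero1b, Hsp90b1 with 2 matches, Hspa5, Pdia6 and Syvn1. The shorter ERSE-II, which is ATTGG, any 1 base and CCACG, was in the windows of Herpud1 and Dnajb11 (5.0% against 0.0444% of all genes). The XBP1 site TGACGTGG was in those of Ube2j1, Vcp, Txndc5 and Txndc11 (10% against 0.714%), and no window held more than 1 of these motifs. The ERSE, the ERSE-II and the XBP1 site were in 0 of the windows of 58 other genes of the same pathways, which are described below. The letters TGATGNAAT, bound by ATF4 and CHOP complexes, and the palindromic glucocorticoid receptor site of AGAACA, any 3 bases and TGTTCT were in none of the 40 windows, against 1.08% and 0.0111% of all genes. The matches of Hspa5, Pdia6, Syvn1, Canx, Derl3, Ero1b and Herpud1 are printed on the strand of the gene, with the fixed letters of the motif in capitals. A match on the opposite strand reads CGTGG first and ATTGG last.
Hspa5, chr2:34772005-34772063, + strand: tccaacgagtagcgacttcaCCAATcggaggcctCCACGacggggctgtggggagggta
Pdia6, chr12:17266471-17266529, + strand: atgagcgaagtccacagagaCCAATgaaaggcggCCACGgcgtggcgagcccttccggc
Syvn1, chr19:6046512-6046570, + strand: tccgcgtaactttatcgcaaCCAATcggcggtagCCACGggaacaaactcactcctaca
Canx, chr11:50325780-50325838, - strand: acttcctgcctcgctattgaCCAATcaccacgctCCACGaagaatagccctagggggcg
Derl3, chr10:75893222-75893280, + strand: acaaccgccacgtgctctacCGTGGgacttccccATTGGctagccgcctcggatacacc
Ero1b, chr13:12565662-12565720, + strand: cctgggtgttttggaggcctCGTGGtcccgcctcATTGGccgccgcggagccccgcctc
Herpud1, chr8:94386357-94386407, + strand: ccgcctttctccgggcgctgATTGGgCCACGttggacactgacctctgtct

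In WT Paneth cells the members took 0.842% ± 0.124 (SD, n = 3) of all counts, against 0.93% ± 0.108 in WT non-Paneth cells. Because Lyz1 and the Defa genes alone took 44.6% of the counts of WT Paneth cells, the members' share of the remaining counts was 1.52% in Paneth and 0.93% in non-Paneth cells. In GRKO mice the members took 1.15% ± 0.0997 of all counts in Paneth and 1.15% ± 0.131 in non-Paneth cells, and 1.98% and 1.16% without Lyz1 and the Defa genes. Levels of different genes were compared as TMM-scaled CPM per kilobase of exons. On that scale P4hb, the protein disulfide isomerase, stood first in WT Paneth cells at 863. It was followed by the lectin chaperone Calr at 218, its partner isomerase Pdia3 at 170, and Hspa5, the Hsp70 chaperone BiP, at 163 ± 48.2. Next came Txndc5 at 103, Sdf2l1 at 86.7, Hsp90b1 at 80.6, Selenos at 77.3, Pdia6 at 76.9 and Fkbp2 at 76.1. Pdia3 and Hspa5 lay closer to each other than the SD of either, and so did each of the members from Sdf2l1 to Fkbp2 and the next in order. The exonic length joins the exons of all annotated transcripts. It was 6113 bases for Hsp90b1 and 1113 for Sdf2l1, against 3258 and 1113 in the longest transcript, so this order depends on the length used. Ddit3, which encodes the death-related factor CHOP, was the lowest member at 0.764 per kilobase. P4hb and Calr also stood first in the other 3 groups, while Tent5c, Ero1b and Derl3 were among the last in non-Paneth cells, Derl3 at 0.107 per kilobase in WT.

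**Figure D1:**
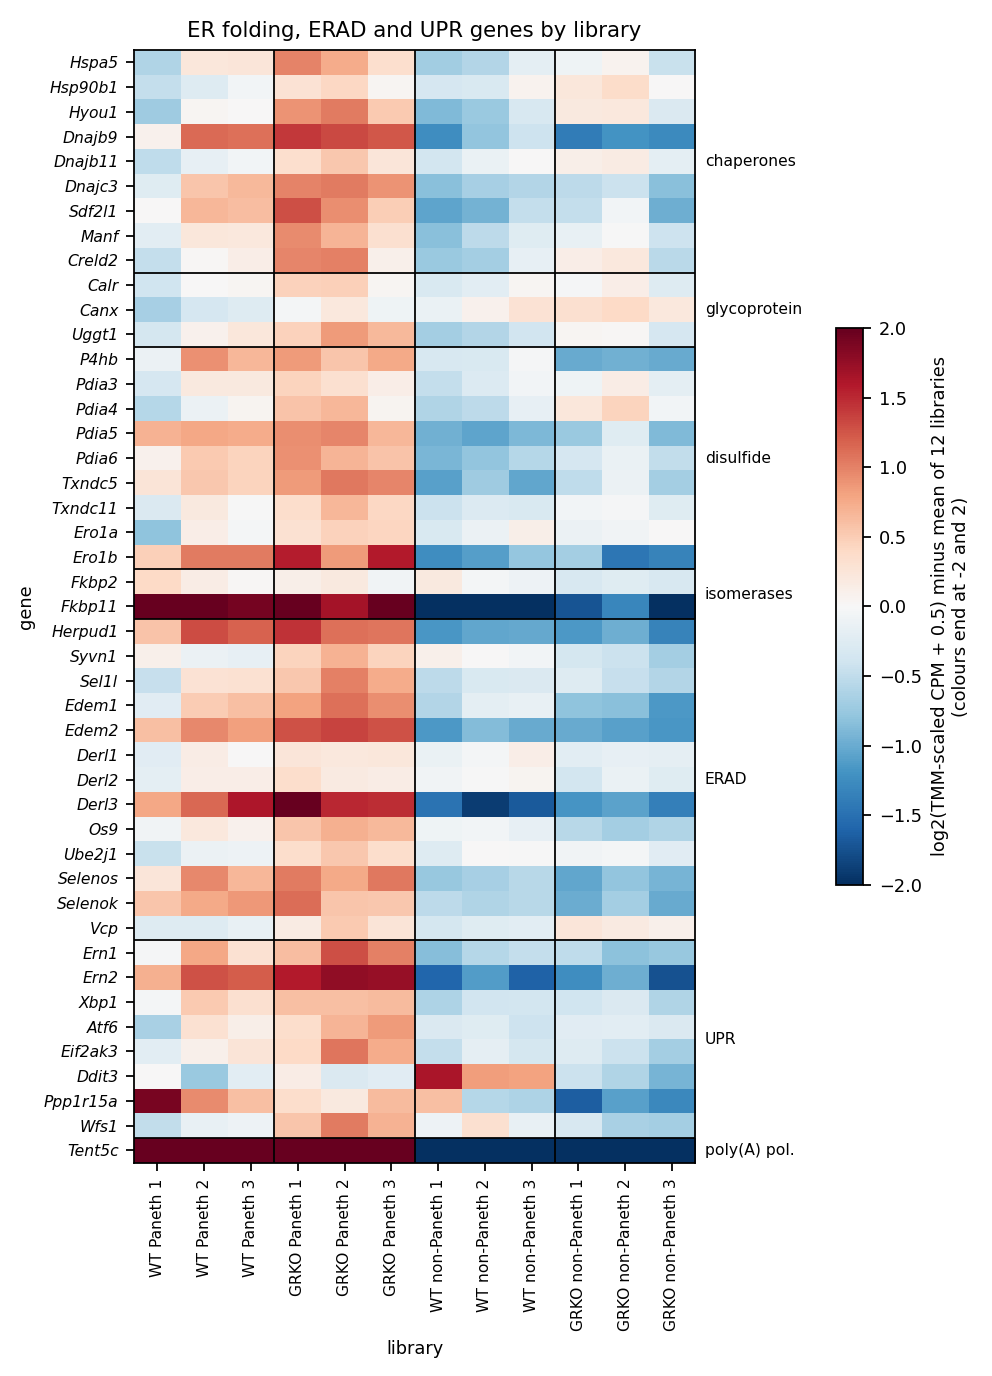
Level of each of the 45 members (rows, by role) in each of the 12 libraries (columns), as log2(TMM-scaled CPM + 0.5) minus the gene's mean over the libraries, with red for high and blue for low and colours ending at -2 and 2. The Paneth columns are redder for most members, most of all for Tent5c, Fkbp11, Derl3 and Ern2, and WT Paneth replicate 1 is lower than the other Paneth libraries for most members but not for Ppp1r15a.

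The members did not sit at 1 common level within WT Paneth cells. The median member of WT Paneth replicate 1 lay 0.282 below its group mean on the log2 scale, and those of replicates 2 and 3 lay 0.148 and 0.15 above it. In replicate 1 the Hsp70 cochaperone Dnajb9 was at 36.4, against 75.7 and 74.3 in the others. Ppp1r15a, the GADD34 phosphatase subunit that restores translation, went the other way, at 47.8 in replicate 1 against 24.4 and 19.2. Among WT non-Paneth cells Ppp1r15a was also highest in replicate 1, at 19.1 against 8.19 and 7.96.

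The first comparison asked which members differ between Paneth and non-Paneth cells of WT mice. By edgeR's quasi-likelihood test with Benjamini-Hochberg adjustment at 5%, 23 members were higher in Paneth cells and 2 were lower, 55.6% of them in all, and 50.7% of all genes tested passed in either direction (24.0% higher, 26.7% lower). The 3 Paneth libraries lay above all 3 non-Paneth libraries for 20 members and below them for 2, against 27.6% and 29.9% of all genes. The median log2 fold change was 0.48 over members and 0.01 over all genes. The direction depends on the scale: scaled by library totals alone, all genes had a median of -0.68 and the members one of -0.24, with 14 members higher and 17 lower. On that scale 68.8% of all genes passed in either direction. Relative to the median of all genes the members stood 0.47 higher with TMM and 0.44 higher by totals.

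The chaperones were divided in this comparison, with 4 of 9 higher. Hspa5, on the plus strand of chromosome 2 from 34661982 to 34668880 (GRCm39), was at 594, 1053 and 1062 in WT Paneth and 558, 598 and 784 in WT non-Paneth cells. The groups overlapped through Paneth replicate 1, and the log2 fold change of 0.48 ± 0.23 (SE) had an adjusted p = 0.0998, or 0.0211 with the replicate number as a block. Of its exonic bases, 44.2% lie opposite Rabepk, and the strand that was counted is not stated. Several of its cochaperones passed the test. Dnajb9, which also represses IRE1, was 3.11-fold higher in Paneth cells (log2 1.64 ± 0.26, adjusted p = 0.000166), Sdf2l1, a partner of DNAJB11, 2.42-fold and Dnajc3 2.09-fold. Manf, a secreted binder of HSPA5, was 1.51-fold higher, though 32.6% of its exonic bases are shared with Rbm15b. Hsp90b1 and Dnajb11 had log2 fold changes of -0.07 ± 0.16 and -0.08 ± 0.15. Hyou1, the nucleotide exchange factor of HSPA5, and Creld2 did not pass (adjusted p = 0.107 and 0.232), but did with the replicate block (0.0133 and 0.0102).

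Of the genes that handle N-glycoproteins, Uggt1, which marks misfolded glycoproteins for another round of folding, was 1.47-fold higher in Paneth cells (adjusted p = 0.00925). Canx, the membrane-bound lectin chaperone whose promoter match is printed above, was one of the 2 members that were lower, at 265, 334 and 350.3 against 382, 446 and 513. All Paneth libraries lay below all non-Paneth libraries, at a log2 fold change of -0.50 ± 0.15 (adjusted p = 0.00966). Calr, its soluble relative, had a log2 fold change of 0.05 ± 0.17.

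Among the 9 genes of disulfide formation and exchange, 5 were higher in Paneth cells and none passed in the other direction. Ero1b, an ER oxidase that hands oxidizing power to the isomerases, was at 17.8, 26.3 and 26.5 in Paneth and 5.03, 5.58 and 7.16 in non-Paneth cells, 3.95-fold apart with no overlap (adjusted p = 2.1e-05). Its paralog Ero1a had a log2 fold change of -0.10 ± 0.19. The isomerase Pdia5 was at 72.2, 76.3 and 75.0 against 22.6, 21.1 and 23.7 (log2 1.73 ± 0.15, adjusted p = 2.6e-07), again with no overlap. Txndc5 was 2.57-fold and Pdia6 2.17-fold higher. P4hb, the most abundant of them per length, was 1.69-fold higher but overlapped, since Paneth replicate 1 at 2033 lay below the highest non-Paneth library at 2155. Pdia3, Pdia4 and Txndc11 did not pass, at 0.30, 0.23 and 0.32.

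The 2 prolyl isomerases behaved differently. Fkbp11, known for high levels in secretory cells, was at 77.3, 82.0 and 71.9 in Paneth cells and 3.05, 4.18 and 2.73 in non-Paneth cells. This is a 23.2-fold difference (log2 4.54 ± 0.24, adjusted p = 4.84e-09). Fkbp2 had a log2 fold change of 0.18 ± 0.13, and its value is uncertain because 91.3% of its exonic bases are shared with Gm51400 on the same strand.

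Of the 13 ERAD genes, 7 were higher in Paneth cells. Derl3, the derlin that is most restricted to secretory tissue, was at 3.42, 4.58 and 6.50 in Paneth cells and 0.318, 0.116 and 0.214 in non-Paneth cells, where it rested on 5, 2 and 4 counts. The difference was 21.7-fold (log2 4.44 ± 0.43, adjusted p = 5.47e-07), while its relatives Derl1 and Derl2 had log2 fold changes of -0.01 ± 0.12 and 0.03 ± 0.12. Herpud1, which organizes the ERAD complex in the membrane, was at 204, 339.6 and 309 against 61.1, 66.4 and 67.1 (4.38-fold, adjusted p = 1.26e-07). Edem2, which trims mannose on proteins to be degraded, was at 157, 200.2 and 182 against 46.2, 56.2 and 51.2 (3.51-fold, adjusted p = 1.55e-08). The selenoproteins Selenos and Selenok, which bind VCP and the derlins, were 2.48- and 2.47-fold higher, Edem1 1.55-fold, and Sel1l passed narrowly (adjusted p = 0.0497). The ubiquitin ligase Syvn1, its conjugating enzyme Ube2j1, the lectin Os9 and the ATPase Vcp, the other members of the list, did not pass, with log2 fold changes of -0.08, -0.14, 0.18 and 0.05.

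Of the 8 sensors, transcription factors and feedback genes, Ern2 separated the fractions most. Ern2, the IRE1 form of mucosal epithelia, on the minus strand of chromosome 7 from 121769116 to 121785468 (GRCm39), was at 57.8, 86.3 and 82.6 in Paneth and 11.4, 16.04 and 11.1 in non-Paneth cells (5.87-fold, log2 2.55 ± 0.21, adjusted p = 1.73e-07). Ern1, the widely expressed form, was at 54.2, 94.9 and 68.7 against 30.3, 37.2 and 39.8, a difference of 2.03-fold without overlap (adjusted p = 0.000767). Xbp1, whose transcript IRE1 splices, was at 210.5, 310.3 and 269.7 against 139.9, 164 and 167 (1.67-fold, adjusted p = 0.00045), and gene counts do not show how much of it was spliced. The other sensors did not pass. Atf6 was at 38.2, 75.0 and 65.8 against 49.4, 50.9 and 45.2 (log2 0.30 ± 0.20, adjusted p = 0.225), though it passed without WT Paneth replicate 1 (0.00494). Eif2ak3 was at 30.7, 38.2 and 42.7 against 25.5, 31.3 and 27.8 (log2 0.40 ± 0.18, adjusted p = 0.0729, or 0.0472 with the replicate block). Ddit3, on the plus strand of chromosome 10 from 127124268 to 127132163 (GRCm39), was the other member that was lower in Paneth cells, at 5.32, 2.97 and 4.50 against 17.5, 9.82 and 9.56 (2.85-fold lower, adjusted p = 0.000396). All Paneth libraries lay below all non-Paneth libraries, though 82.4% of the exonic bases of Ddit3 lie opposite other genes. Ppp1r15a was 2.61-fold higher (adjusted p = 0.0132) and Wfs1, an ER membrane protein of calcium balance, had a log2 fold change of -0.29 ± 0.18.

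Tent5c, a poly(A) polymerase that stabilizes mRNAs of secreted proteins, showed the largest difference of the 45 genes. The gene lies on the minus strand of chromosome 3 from 100358944 to 100396702 (GRCm39). It was at 165, 306 and 276 in WT Paneth cells and 2.93, 2.67 and 2.03 in WT non-Paneth cells, 98.0-fold apart (log2 6.61 ± 0.27, adjusted p = 4.36e-10). The summed Paneth markers differ between the same libraries as given above, and so do other marker sums. The enterocyte sum was between 405 and 1427 in WT Paneth and between 16620 and 19210 in WT non-Paneth cells, the tuft sum between 119 and 316 against 2.1 to 6.68, the stem sum between 7353 and 7876 against 3333 to 4547 and the enteroendocrine sum between 75.3 and 139 against 154 to 478. Their part in the result was not tested.

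**Figure D2:**
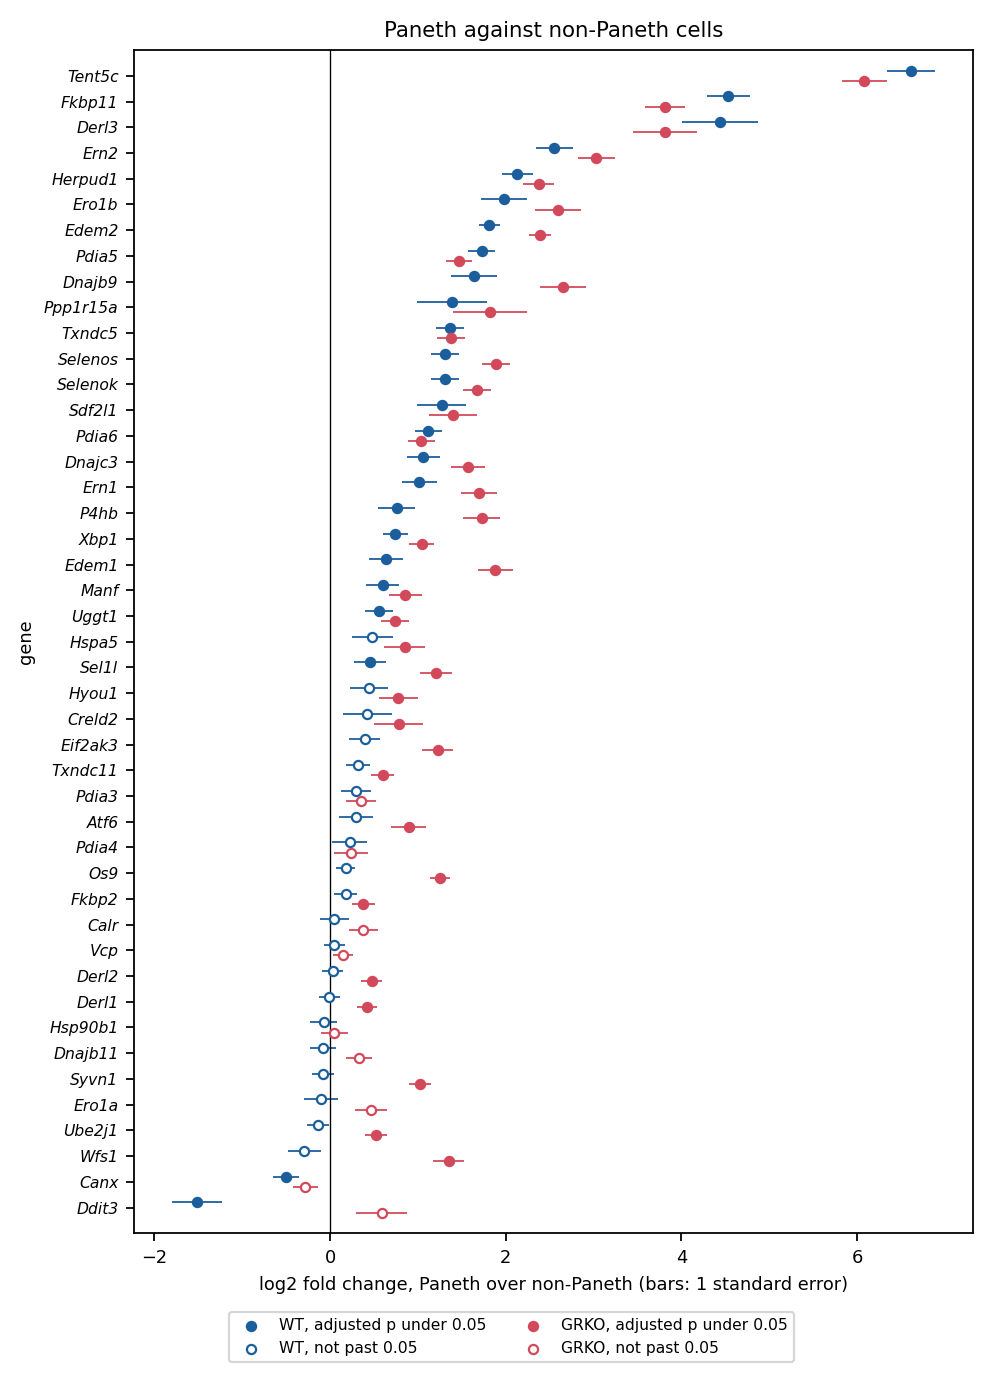
Log2 fold change of each member between Paneth and non-Paneth cells, with bars of 1 standard error, in WT (blue) and GRKO mice (red), filled where the adjusted p was under 0.05. Tent5c, Fkbp11 and Derl3 stand far to the right in both genotypes at 3.82 or more, and Canx and Ddit3 are the only filled points left of 0, both in WT.

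The same comparison was made within GRKO mice, on other libraries. Here 36 members (80.0%) were higher in Paneth cells and 0 were lower, where 39.2% of all genes passed in either direction (18.0% higher, 21.2% lower). With DESeq2 the numbers were 40 and 0, with 39.2% of all genes called, and 39 members had an unadjusted edgeR p under 0.05. The Paneth libraries lay above all non-Paneth libraries for 38 members and below them for 0, against 22.4% and 30.2% of all genes. The median was 1.04 over members and -0.08 over all genes. By library totals the medians were 0.07 and -1.05, with 16 members higher and 13 lower, so that the members stood 1.12 above all genes on either scale. By totals 82.6% of all genes passed in either direction. In the same libraries the enterocyte marker sum was between 630 and 917 in Paneth and between 3532 and 4480 in non-Paneth cells. The tuft sum was between 303 and 795 against 46.7 to 187 and the proliferation sum between 407 and 548 against 863 to 952. The goblet sum was between 10050 and 16310 against 5716 to 7724. In Paneth cells most of it was Spink4, at a mean of 8646 against 323.7. Muc2 and Tff3 were also higher there on average, but Fcgbp, Clca1 and Zg16 were lower. These 3 were at 647.4, 743.3 and 79.24 against 2331, 1733 and 1196. The part of these markers in the result was not tested.

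Tent5c, Fkbp11 and Derl3 again had the largest differences. Tent5c was at 292, 348 and 428 in Paneth cells of GRKO mice and at 4.66, 5.41 and 5.69 in their non-Paneth cells (67.7-fold, adjusted p = 6.36e-10). Fkbp11 was at 102, 60.5 and 75.7 against 5.31, 7.29 and 4.22 (14.1-fold), and Derl3 at 9.54, 5.99 and 5.87 against 0.512, 0.587 and 0.388 (14.1-fold). Each of these 3 genes was well apart in both genotypes, and none of their libraries overlapped between fractions. Ern2 was at 107, 121 and 119.5 against 14.6, 17.7 and 10.2 (8.16-fold, log2 3.03 ± 0.21). Dnajb9 was at 92.0, 85.8 and 81.6 against 12.7, 14.7 and 13.9 (6.28-fold, log2 2.65 ± 0.26). Ero1b was at 38.4, 23.1 and 38.8 against 7.64, 4.32 and 4.65 (6.04-fold). All 3 genes were again apart without overlap. Edem2 was at 249.8, 263 and 250.4 against 51.0, 48.5 and 45.9 (5.25-fold), and Herpud1 at 374, 294 and 289.5 against 61.3, 69.2 and 54.2 (5.18-fold). All of these had adjusted p-values of 6.7e-06 or less.

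All but 1 of the sensors and feedback genes were higher in GRKO Paneth cells. Ern1 was at 84.7, 135 and 112 against 38.9, 31.1 and 32.6 (3.24-fold) and Xbp1 at 327, 327 and 335 against 163, 176 and 141 (2.06-fold, adjusted p = 4.04e-05). Atf6 was at 77.0, 97.6 and 109.9 against 51.8, 52.1 and 49.3 (1.86-fold, adjusted p = 0.00202), and Eif2ak3 at 47.2, 75.3 and 60.0 against 29.8, 26.4 and 22.1 (2.34-fold, adjusted p = 5.68e-05). No library of these 4 genes overlapped between the fractions. Hspa5 was at 1797, 1504 and 1135 against 848, 949.6 and 659 (1.81-fold, adjusted p = 0.00985), also without overlap. Ddit3 was at 5.92, 4.23 and 4.45 against 3.77, 3.31 and 2.54, and its log2 fold change of 0.59 ± 0.29 did not pass (adjusted p = 0.121). Of the ERAD genes 12 of 13 were higher, with Vcp at a log2 fold change of 0.15 ± 0.12 as the exception. The other members that did not pass were Hsp90b1, Dnajb11, Calr, Canx, Pdia3, Pdia4 and Ero1a, with log2 fold changes between -0.28 and 0.47.

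The deletion itself was compared within each fraction. In Paneth cells 43 of the 45 members had a positive log2 fold change for GRKO over WT, with a median of 0.52 against 0.03 over all genes, and by library totals of 0.56 against 0.05. At an adjusted p under 0.05, 10 members (22.2%) rose and 0 fell, where 3.22% of all genes passed (1.7% higher, 1.52% lower). DESeq2 gave 25 and 0, with 10.5% of all genes called, and 30 members had an unadjusted edgeR p under 0.05. All GRKO libraries lay above all WT libraries for 28 members and below them for 0, against 14.2% and 10.2% of all genes. The number of calls rested on single libraries. Without WT Paneth replicate 1, the library with the low member levels, 0 members passed in edgeR (24 at an unadjusted p under 0.05), and only 1 of 13361 genes did. Without GRKO Paneth replicate 2 it was 0 members (28 unadjusted), and 0 of all 13320 genes passed. Without GRKO Paneth replicate 3 it was 1, with 0.307% of all genes called, and without WT Paneth replicate 2 it was 3, with 0.643%. With the fit limited to the Paneth libraries it was also 0 (27 unadjusted), and 0 of 11924 genes passed. Scaled by totals it was 0 (33 unadjusted), with 2 of 13057 genes called. The median over members lay between 0.38 and 0.60 in all 6 fits that each left out 1 Paneth library.

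Of the 9 chaperones, 2 rose in GRKO Paneth cells. Hyou1 was at 144, 244 and 239 in WT and 439.7, 489 and 342 in GRKO Paneth cells (2.03-fold, log2 1.02 ± 0.22, adjusted p = 0.0448). Dnajb11, an ER-resident J-protein, was at 79.4, 101 and 109 against 142, 164 and 134 (1.52-fold, log2 0.60 ± 0.15, adjusted p = 0.0469). Both were above WT in every GRKO library. The chaperone Hspa5 was at 594, 1053 and 1062 against 1797, 1504 and 1135, also with no overlap, but its log2 fold change of 0.71 ± 0.23 had an adjusted p = 0.0834. Uggt1 was at 136, 184 and 202 against 238, 313 and 273 (1.58-fold, adjusted p = 0.0448) and was the 1 glycoprotein gene that rose.

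ERAD supplied 5 of the 10. The ligase Syvn1 was at 69.3, 59.6 and 57.7 against 88.0, 106 and 88.4 (1.51-fold, log2 0.60 ± 0.13, adjusted p = 0.044). Its conjugating enzyme Ube2j1 was at 37.3, 46.9 and 47.5 against 65.0, 73.9 and 65.1 (1.55-fold, adjusted p = 0.0411). The lectin Os9, which delivers glycoproteins to the ligase, was at 186, 227 and 206 against 288, 320.0 and 305 (1.47-fold, adjusted p = 0.0409). For these 3 genes, which act at the ligase, every GRKO library lay above every WT library. Vcp was 1.46-fold higher (adjusted p = 0.0447) and Edem2 1.42-fold (adjusted p = 0.0448). Sel1l, the adaptor of the ligase, just missed the threshold at a log2 fold change of 0.69 ± 0.18 (adjusted p = 0.0518). Herpud1 and the derlins Derl1, Derl2 and Derl3 had log2 fold changes of 0.17, 0.25, 0.20 and 0.56.

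Of the sensors and feedback genes, 2 passed. Wfs1 had the largest log2 fold change among members, 1.04 ± 0.18 (adjusted p = 0.0347), with 13.9, 17.7 and 18.3 in WT and 29.1, 41.1 and 32.2 in GRKO Paneth cells. The gene lies on the minus strand of chromosome 5 from 37106176 to 37153872 (GRCm39), and 25.2% of its exonic bases lie opposite Ppp2r2c. Eif2ak3, which encodes PERK, was at 30.7, 38.2 and 42.7 against 47.2, 75.3 and 60.0 (1.64-fold, log2 0.72 ± 0.18, adjusted p = 0.0448). The other sensors leaned the same way without passing, Atf6 at 0.67 ± 0.20 (adjusted p = 0.0603), Ern2 at 0.62 ± 0.20 (adjusted p = 0.0773) and Ern1 at 0.61 ± 0.20 (adjusted p = 0.0842). For Atf6 and Ern2 the GRKO libraries lay above all WT libraries, and for Ern1 they overlapped. Xbp1 was at 210.5, 310.3 and 269.7 against 327, 327 and 335 (log2 0.32 ± 0.14, adjusted p = 0.16), without overlap. Ddit3, a target of the PERK branch, was at 5.32, 2.97 and 4.50 against 5.92, 4.23 and 4.45, an overlap, with a log2 fold change of 0.17 ± 0.30. Ppp1r15a and Fkbp2 were the members with negative values, -0.88 ± 0.40 and -0.11 ± 0.13, neither past the threshold.

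None of the 9 disulfide genes passed in Paneth cells. Their log2 fold changes lay between 0.13 for Pdia5 and 0.65 for Pdia4, and P4hb was at 2033, 4133 and 3465 against 3979, 3240 and 3731. Tent5c, at 165, 306 and 276 against 292, 348 and 428, overlapped between genotypes (log2 0.52 ± 0.20, adjusted p = 0.123). Fkbp11 had a log2 fold change of 0.04 ± 0.20. The tuft cell marker sum was between 119 and 316 in WT and between 303 and 795 in GRKO Paneth cells, and the Paneth marker sums overlapped. The stem cell marker sum was between 7353 and 7876 in WT and between 3763 and 5542 in GRKO. Most of it was Olfm4, at a mean of 7212 in WT and 4398 in GRKO. Smoc2 was at 246.6 to 274.4 in WT and 223.5 to 229.5 in GRKO, while Lgr5 and Ascl2 overlapped between genotypes. The part of these differences in the member results was not tested.

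**Figure D3:**
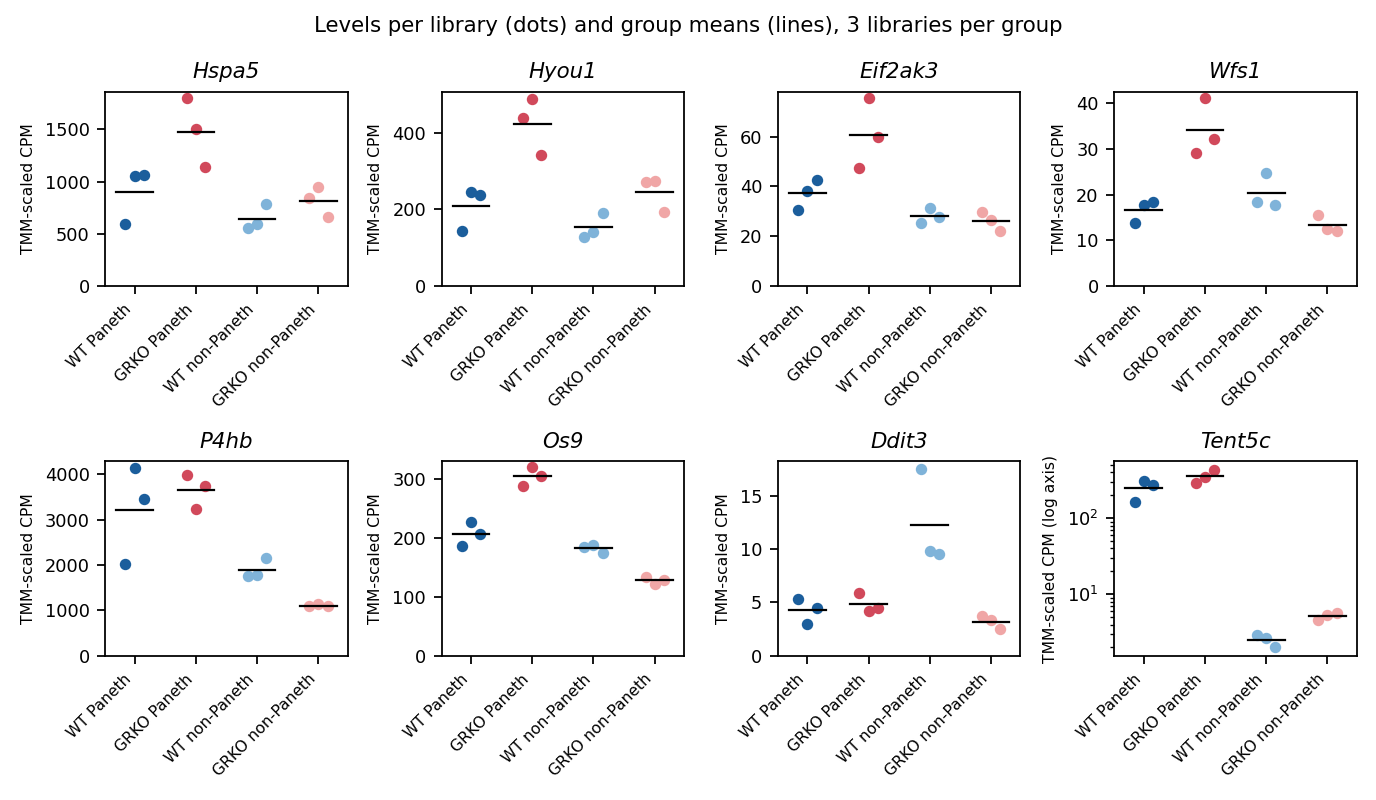
TMM-scaled CPM of 8 members in the 4 groups, with a dot per library and a line at the group mean of 3 libraries, on linear axes from 0 except for Tent5c, which has a log axis. The GRKO Paneth dots of Hyou1, Wfs1 and Os9 all lie above the WT Paneth dots, while the GRKO non-Paneth dots of P4hb, Os9 and Ddit3 all lie below the WT non-Paneth dots.

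In non-Paneth cells, the members went in both directions with the deletion. There 8 rose and 7 fell, where 37.3% of all genes passed (17.5% higher, 19.8% lower), so their share of 33.3% was near that of all genes. The number of rises depended on single libraries. Without WT non-Paneth replicate 1 there were 1 rise and 7 falls, without GRKO replicate 1 there were 2 and 6, without GRKO replicate 2 there were 2 and 7, and without WT replicate 2 there were 4 and 6. Calls over all genes were also fewer in these fits, at 29.3%, 28.3%, 27.5% and 27.4% in the same order. All GRKO libraries lay above all WT libraries for 11 members and below them for 12, against 27.8% and 27.5% of all genes. The median was 0.07 over members and 0.02 over all genes. By library totals the medians were 0.36 and 0.31, with 19 members higher and 2 lower, so the split between directions depends on the scale. By totals 44.6% of all genes passed in either direction. The WT non-Paneth libraries also held an enterocyte marker sum between 16620 and 19210, against 3532 to 4480 in GRKO, and a proliferation marker sum between 501 and 571 against 863 to 952. The goblet sums overlapped, at 6724 to 14570 and 5716 to 7724, and the tuft sums were 2.1 to 6.68 and 46.7 to 187. The part of this difference in cell markers was not tested.

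The 8 genes that rose were 1 of 9 chaperones, 1 of 3 glycoprotein genes, 3 of 9 disulfide genes, Fkbp11, Vcp and Tent5c. Hyou1 was at 128, 142 and 190.0 in WT and 271, 276 and 194 in GRKO non-Paneth cells (1.61-fold, adjusted p = 0.0246), and Uggt1 at 108, 115 and 133 against 179, 176 and 138 (1.39-fold, adjusted p = 0.0311). Both also passed in Paneth cells. Of the disulfide isomerases, Pdia4 was at 104, 109 and 140.4 against 184, 214 and 150.0 (1.55-fold, adjusted p = 0.0204). Txndc5 was at 164, 213 and 169.8 against 246, 323 and 218 (1.44-fold, adjusted p = 0.0156), and Pdia6 at 202, 222 and 258 against 302, 348 and 273 (1.35-fold, adjusted p = 0.0331). None of these 3 isomerase genes overlapped between genotypes. Vcp was at 189, 204 and 209.5 against 287, 273 and 260.4 (1.36-fold, adjusted p = 0.00796). The low Tent5c level of non-Paneth cells rose from 2.93, 2.67 and 2.03 to 4.66, 5.41 and 5.69 (2.07-fold, log2 1.05 ± 0.25, adjusted p = 0.00507), and Fkbp11 from 3.05, 4.18 and 2.73 to 5.31, 7.29 and 4.22 (1.69-fold, adjusted p = 0.025). Both stayed far below their Paneth cell levels, and the Paneth marker sum of non-Paneth libraries overlapped between genotypes at 369.9 to 1134 and 598 to 1148.

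The genes that fell were led by Ddit3 and Ppp1r15a, which lie downstream of PERK. Ddit3 was at 17.5, 9.82 and 9.56 in WT and 3.77, 3.31 and 2.54 in GRKO non-Paneth cells (3.82-fold lower, log2 -1.93 ± 0.27, adjusted p = 0.000109). Ppp1r15a was at 19.1, 8.19 and 7.96 against 3.63, 5.62 and 4.83 (2.49-fold lower, adjusted p = 0.0283). For both genes WT replicate 1 was the highest of its group, and all GRKO libraries lay below all WT libraries. P4hb was at 1757, 1782 and 2155 against 1087, 1134 and 1091 (1.72-fold lower, adjusted p = 0.00865). Of the ERAD genes, Edem1 was at 88.0, 115 and 120.2 against 76.0, 74.0 and 59.5 (1.54-fold lower, adjusted p = 0.0195) and Syvn1 at 69.9, 65.3 and 62.4 against 50.4, 48.0 and 40.2 (1.43-fold lower, adjusted p = 0.00507). Os9 was at 185, 188 and 174 against 134, 122 and 128 (1.42-fold lower, adjusted p = 0.00232). None of these ERAD genes overlapped, but by library totals none of the 3 passed, nor did Ppp1r15a and Wfs1. Wfs1 was at 18.4, 24.8 and 17.7 against 15.7, 12.4 and 12.2 (1.51-fold lower, adjusted p = 0.0155).

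None of the sensors, nor Xbp1, passed in non-Paneth cells. Ern1 was at 30.3, 37.2 and 39.8 against 38.9, 31.1 and 32.6 (log2 -0.07 ± 0.20), Ern2 at 11.4, 16.04 and 11.1 against 14.6, 17.7 and 10.2 (0.14 ± 0.21) and Xbp1 at 139.9, 164 and 167 against 163, 176 and 141 (0.03 ± 0.14). Atf6 was at 49.4, 50.9 and 45.2 against 51.8, 52.1 and 49.3 (0.07 ± 0.19), and Eif2ak3 at 25.5, 31.3 and 27.8 against 29.8, 26.4 and 22.1 (-0.11 ± 0.17). The libraries of both genotypes overlapped for all 5. Hspa5 overlapped as well, at 558, 598 and 784 against 848, 949.6 and 659, with a log2 fold change of 0.34 ± 0.23 (adjusted p = 0.271).

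**Figure D4:**
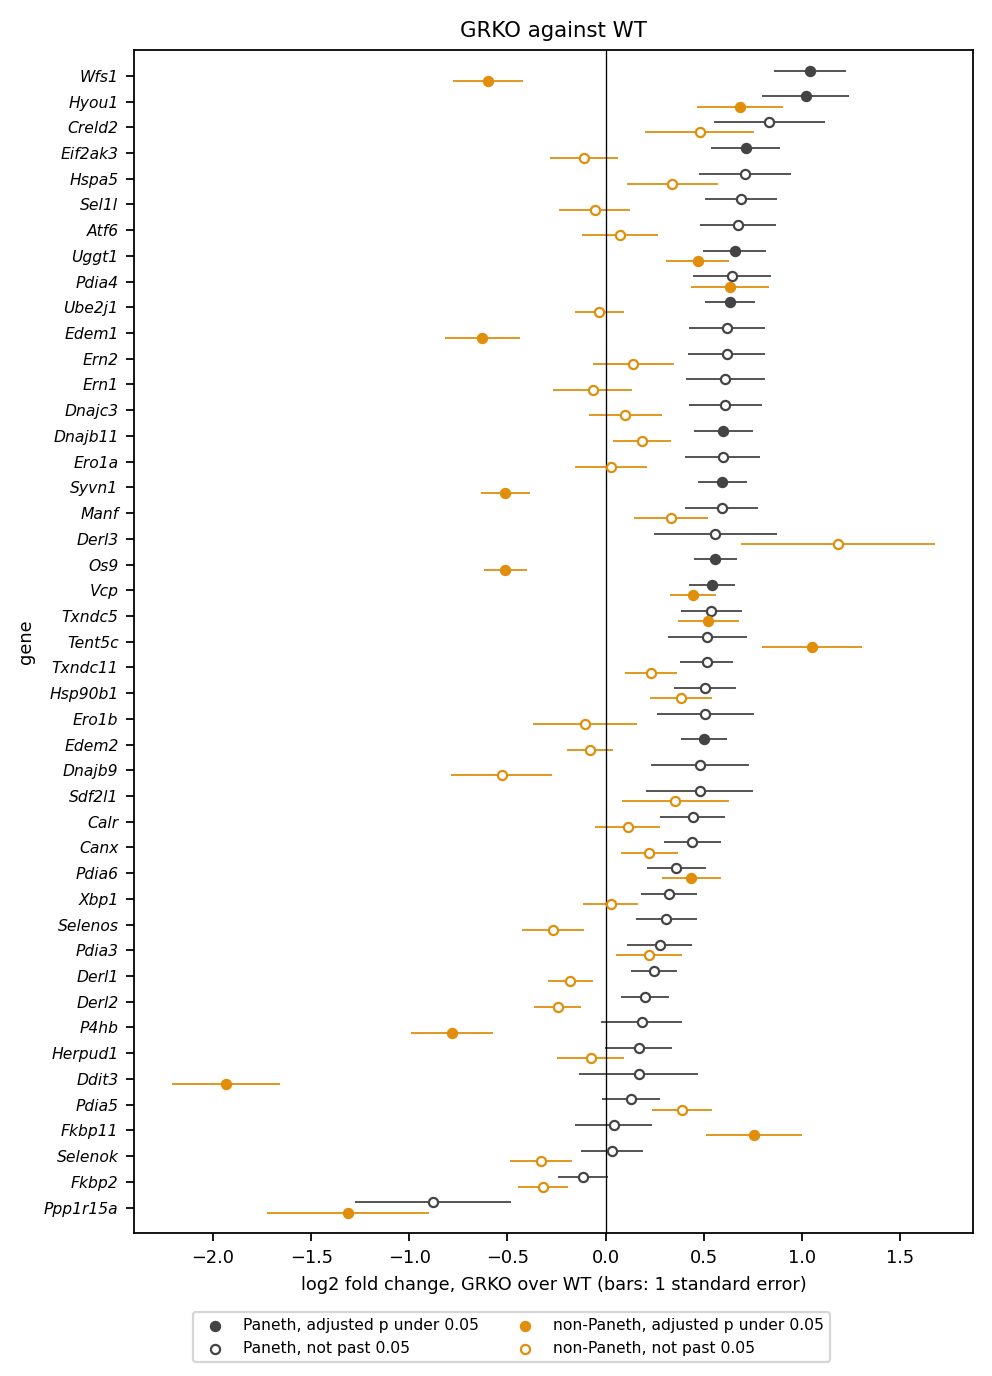
Log2 fold change of each member for GRKO over WT, with bars of 1 standard error, in Paneth (grey) and non-Paneth cells (orange), filled where the adjusted p was under 0.05. Nearly all grey points lie right of 0, with Wfs1 at 1.04 and Hyou1 at 1.02 on top, while the orange points spread from Ddit3 at -1.93 to Derl3 at 1.18.

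Whether the effect of the deletion differed between fractions was tested by an interaction term of genotype with fraction, the log2 fold change in Paneth minus that in non-Paneth cells. For 9 members it was higher in Paneth cells and for 0 lower, a share of 20%, where 18.7% of all genes passed (11.5% higher, 7.28% lower). The share in either direction was thus near that of all genes. DESeq2 gave 14 and 0, with 22.6% of all genes called, and 18 members had an unadjusted edgeR p under 0.05. The median was 0.37 over members and -0.01 over all genes, and by library totals 0.10 against -0.28. This test shares its libraries with the comparisons above, so its values restate how those differ.

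By which of their values passed the threshold, the 9 members fell into 3 patterns. For Wfs1, Syvn1 and Os9, a rise in Paneth cells met a fall in non-Paneth cells. The interaction was 1.64 ± 0.26 for Wfs1 (adjusted p = 0.000915), 1.11 ± 0.18 for Syvn1 (adjusted p = 0.00111) and 1.07 ± 0.16 for Os9 (adjusted p = 0.000586). For Ddit3, Edem1 and P4hb the fall in non-Paneth cells passed and the value in Paneth cells did not. In Paneth cells Ddit3 was at 0.17 and P4hb at 0.185. Edem1 was at 0.62 ± 0.19 there (adjusted p = 0.0733), with every GRKO library above every WT library. The interaction was 2.10 ± 0.41 for Ddit3 (adjusted p = 0.00325), 1.25 ± 0.27 for Edem1 (adjusted p = 0.0068) and 0.97 ± 0.29 for P4hb (adjusted p = 0.0331). For Eif2ak3, Ube2j1 and Edem2 it was the rise in Paneth cells that passed, with interactions of 0.83 ± 0.25 (adjusted p = 0.0305), 0.67 ± 0.18 (adjusted p = 0.0181) and 0.58 ± 0.17 (adjusted p = 0.0254). Thus 5 of the 9 were ERAD genes and 1, P4hb, a disulfide isomerase, and none of the 9 chaperones passed. Dnajb9 came closest of these at 1.01 ± 0.36 (adjusted p = 0.0672), passing in 6 of 19 alternatives, and Sel1l, at 0.75 ± 0.26 (adjusted p = 0.0582), passed in 11. By library totals 5 of the 9 remained, without P4hb, Eif2ak3, Ube2j1 and Edem2, and Fkbp11 passed in the other direction at a log2 value of -1.02. By totals 19.8% of all genes passed. The other sensors did not pass, with interactions of 0.68 ± 0.28 for Ern1, 0.60 ± 0.27 for Atf6, 0.48 ± 0.28 for Ern2 and 0.30 ± 0.20 for Xbp1, and neither did Hspa5 at 0.37 ± 0.33.

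Another 76 genes of the same pathways, covering the integrated stress response, the ATF6 and CREB3 family, further folding and redox enzymes and further ERAD genes, were listed beside the members, and 70 were tested. In WT mice 29 were higher and 13 lower in Paneth cells (41.4% and 18.6%, against 24.0% and 26.7% of all genes), and in GRKO mice 32 and 6 (45.7% and 8.57%, against 18.0% and 21.2%). The isomerase Pdia2 had a log2 fold change of 7.12 ± 0.56 in WT, the stress-induced cofactor Nupr1 one of 6.96 ± 0.44 and Bhlha15 (MIST1), a factor of secretory cells, one of 6.29 ± 0.24. At the other end stood Creb3l3, a membrane-bound factor of enterocytes and liver, at -5.80 ± 0.63, with the ERAD genes Erlin1 at -1.44 and Marchf6 at -1.36. For GRKO over WT in Paneth cells 2 rose, Bhlha15 at 0.80 ± 0.18 and Atf6b at 0.47 ± 0.12, and Agr3 fell, at -1.71 ± 0.36. These are 4.29% of the list, against 3.22% of all genes. In non-Paneth cells 8 rose and 10 fell, 25.7% against 37.3% of all genes. Bhlha15 was up by 1.14 ± 0.24, the asparagine synthetase gene Asns by 0.85 ± 0.17 on the log2 scale and Fkbp9 by 0.997 ± 0.19. The stress genes Atf3 and Trib3, which act in the same branch as Ddit3, were down at -2.91 ± 0.62 and -2.07 ± 0.42, and Creb3l3 at -2.39 ± 0.50. The 15 tested genes listed for PERK and the integrated stress response went in both directions, however. Past the threshold 3 of them were higher, Asns, Eif2ak4 at 0.61 ± 0.14 and Atf5 at 0.59 ± 0.15, and 2 were lower, Atf3 and Trib3. In the interaction 5 were higher and 1 lower, 8.57% against 18.7% of all genes, led by Creb3l2 at 1.92 ± 0.29, Creb3 at 1.01 ± 0.17 and Erlin1 at 0.96 ± 0.21, with Prdx4 at -0.71 ± 0.22.

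The members with an ERSE in the promoter window were set beside those without. In WT mice 4 of the 10 with it were higher and 1 lower in Paneth cells, with a median log2 fold change of 0.45. Of the 30 without it 17 were higher and 1 lower, with a median of 0.60. Of all genes 24.0% were higher and 26.7% lower. For GRKO over WT in Paneth cells 1 of the 10 and 8 of the 30 rose, against 1.7% of all genes, and the medians were 0.53 and 0.51. In non-Paneth cells they were 0.28 and -0.06. The ERSE members included genes at opposite ends of the list, such as Derl3, 21.7-fold higher in WT Paneth cells, and Canx, 1.41-fold lower.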

How the data were processed

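Per the labels and the study's methods, RNA of sorted cells was made into TruSeq stranded libraries with single-end sequencing. The authors aligned reads to mm39 with STAR 2.7.10a and its gene counting, and the submitters' processing notes also name FastQC, Trimmomatic 0.39 and DESeq2. The deposited values are raw gene counts, and the strand setting of the counting was not stated. Symbols and exonic lengths came from GENCODE vM39 on GRCm39, which may differ from the annotation used for counting.

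The test was that of edgeR 4.0.16, run in R 4.3.3 (TMM, filterByExpr, robust glmQLFit, glmQLFTest) in 1 fit over all 12 libraries, with Benjamini-Hochberg adjustment over all 13057 genes at 5%. DESeq2 1.42.0, other scalings and filters, a replicate block and left-out libraries were alternatives. TMM factors were 0.656 to 0.826 in Paneth and 1.20 to 1.50 in non-Paneth libraries. Folds are 2 to the power of the edgeR log2 fold change, given with its standard error. STAR leaves out reads that overlap several genes.

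The members, gene lists and marker lists were chosen with earlier results of these data known. Named with values per library are Hspa5, Xbp1, Ern1, Ern2, Atf6, Eif2ak3, Ddit3 and, in each comparison, the 8 members with the largest change in each direction past the threshold. Of the other pathway genes the 3 with the largest change in each direction are named, and in non-Paneth cells also Eif2ak4 and Atf5. Between the GRKO fractions only their counts are given. Further members were named to complete a role group.

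P-values measure the spread between these libraries, which may be partly technical where libraries do not come from separate mice. Deviations from the group means of same-numbered WT Paneth and WT non-Paneth libraries correlated at 0.349, 0.229 and 0.238, all above 0.1, so the numbers were taken to pair them. The main fit had no term for this pairing, which entered only through the replicate block. Between WT fractions the block called 29 members and 53.2% of all genes, against 25 and 50.7% in the main fit. Libraries of a group differed by a chi-square per degree of freedom of 12.3 to 47.1, and none was a copy of another.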

Additional observations from a re-analysis of the deposited data

Results flagged for a closer look

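For 9 members the effect of the Nr3c1 deletion differed between the fractions, tested by the interaction term of edgeR's quasi-likelihood fit with Benjamini-Hochberg adjustment over all genes. This is 20% of the members, where 18.7% of all genes passed (11.5% higher, 7.28% lower). In each case the log2 fold change of GRKO over WT was higher in Paneth than in non-Paneth cells. The differences were 2.10 for Ddit3, 1.64 for Wfs1, 1.25 for Edem1, 1.11 for Syvn1, 1.07 for Os9, 0.97 for P4hb, 0.83 for Eif2ak3, 0.67 for Ube2j1 and 0.58 for Edem2. For Ddit3 the change was 0.17 in Paneth and -1.93 in non-Paneth cells, and for Wfs1 1.04 and -0.60. For Ube2j1 it was 0.63 and -0.03, and for Edem2 0.50 and -0.08. Ddit3, Wfs1, Edem1, Syvn1 and Os9 passed in all 19 alternatives, Ube2j1 in 18, Eif2ak3 and Edem2 in 14 and P4hb in 12. The enterocyte marker sum of non-Paneth cells, 16620 to 19210 in WT and 3532 to 4480 in GRKO, differs between the same groups, and its part was not tested.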

How the results depend on the processing

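Scaled by library totals, the median log2 fold change of the members was -0.24 between WT fractions, 0.07 between GRKO fractions, 0.36 for GRKO over WT in non-Paneth cells and 0.10 in the interaction. That scale moved the median of all genes to -0.68, -1.05, 0.31 and -0.28. Under it the number of members with a positive value went from 36 to 19 between WT fractions, from 44 to 25 between GRKO fractions, from 25 to 35 for GRKO over WT in non-Paneth cells and from 40 to 29 in the interaction. The WT fraction values turned to -0.24 for Hspa5, -0.28 for Hyou1, -0.29 for Creld2, -0.43 for Atf6, -0.31 for Eif2ak3, -0.11 for Manf, -0.66 for Calr, -0.15 for Uggt1, -0.42 for Pdia3, -0.49 for Pdia4, -0.40 for Txndc11, -0.51 for Fkbp2, -0.26 for Sel1l, -0.08 for Edem1, -0.68 for Derl2, -0.53 for Os9 and -0.65 for Vcp. The GRKO fraction values turned to -0.39 for Ddit3, -0.14 for Hspa5, -0.92 for Hsp90b1, -0.20 for Hyou1, -0.63 for Dnajb11, -0.14 for Manf, -0.20 for Creld2, -0.60 for Calr, -0.22 for Uggt1, -0.63 for Pdia3, -0.74 for Pdia4, -0.37 for Txndc11, -0.50 for Ero1a, -0.59 for Fkbp2, -0.56 for Derl1, -0.50 for Derl2, -0.44 for Ube2j1, -0.81 for Vcp and -0.06 for Atf6.

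For GRKO over WT in Paneth cells the number of members past the threshold was 10, with 25 by DESeq2 (10.5% of all genes), 28 with no filter on low counts (27 higher, 1 lower; 7.39% of all genes), 19 with the replicate block (7.48% of all genes), and 0 by library totals, with only the groups compared, and at a false discovery rate of 1% (33, 27 and 30 at an unadjusted p under 0.05 in edgeR). By library totals 2 of 13057 genes passed, and with only the groups compared 0 of 11924 did. In non-Paneth cells the number of members was 15, and 6 at 1%. In the interaction it was 9, with 14 by DESeq2 (22.6% of all genes), 14 with the replicate block (22.8%) and 5 at 1%. The block changed the fraction comparisons to 29 members in WT and 41 in GRKO (53.2% and 42.3% of all genes), and non-Paneth cells to 16 (38.2%). Between GRKO fractions the same-numbered deviations correlated at 0.0129, 0.262 and 0.465, so whether the numbers pair these libraries was not settled. Between genotypes the correlation was at or under 0.1 for at least 1 pair in each fraction, and there the block stands for the number alone. The shares of counts without Lyz1 and the Defa genes were 1.52% and 1.98% in WT and GRKO Paneth cells. The cause of these differences was not tested.

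Leaving out 1 library at a time gave 21 to 30 members between WT fractions (median 0.35 to 0.72), 33 to 39 between GRKO fractions (1.05 to 1.24), 0 to 15 for GRKO over WT in Paneth cells (0.38 to 0.60), 8 to 15 in non-Paneth cells (-0.04 to 0.06) and 6 to 16 in the interaction (0.28 to 0.50). In the same order, these fits called 44.2% to 48.6%, 29.9% to 34.4%, 0% to 12.1%, 27.4% to 32% and 11.8% to 19.5% of all genes. In non-Paneth cells the number of members was 8 without WT replicate 1 (1 higher, 7 lower), 8 without GRKO replicate 1 (2 and 6) and 9 without GRKO replicate 2 (2 and 7), against 8 and 7 with all libraries. In the interaction it was 16 without WT Paneth replicate 2. The shares of counts ranged in WT from 0.788% to 0.91% (Paneth) and from 0.869% to 0.972% (non-Paneth), and in GRKO from 1.09% to 1.19% and from 1.09% to 1.22%. Over all single-member values and alternatives, 3102 stayed on their side of the threshold, 176 gained and 155 lost a call with the same direction, and 30 that passed in either fit turned sign. Values that passed in neither could also turn sign and are among the 3102. With 3 libraries a group, small changes could not be detected, and Derl3 rested on 5 or fewer counts a library in WT non-Paneth cells.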

Other observations

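The median coefficient of variation over the 45 members in Paneth cells was 19.4% for WT and 12.7% for GRKO mice, and in non-Paneth cells 13.0% and 12.6%, each over 3 libraries. Ppp1r15a had the highest value in both WT groups, at 50.1% and 54.1%, Creld2 in GRKO Paneth cells at 31.5% and Ero1b in GRKO non-Paneth cells at 33.0%. Differences in spread between groups were not tested.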
